A study of Mus musculus with 8 samples.

Results

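The tumour of a TRAMP mouse of the KitWsh genotype (1 array) was compared with tumours of cromolyn-treated TRAMP mice (3 arrays), all taken at 24 weeks of age, which makes 4 of the 8 arrays of the study. Arrays were chosen by their titles alone, and a gene was described by whether its KitWsh value lay outside the lowest-to-highest range of the 3 cromolyn arrays, and by how far. All animals were of the C57Bl/6 background and every tumour carried the TRAMP transgene. The cromolyn animals received sodium chromoglycate (cromolyn) chronically from 8 weeks of age, and no drug is recorded for the KitWsh animal. Untreated TRAMP tumours (2 arrays) and non-tumour prostates of wild-type mice (2 arrays), both taken at 30 weeks, served as reference levels and gave part of the error estimate. The comparison therefore sets a drug that stabilises mast cells, in animals that have them, against a genotype that lacks them, at the same age.

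In TRAMP mice the probasin promoter directs the T antigens of a simian polyomavirus to the prostate epithelium, where they bind and disable the p53 and Rb proteins. Tumours of this model range from gland-forming adenocarcinoma to poorly differentiated carcinoma that carries neuroendocrine markers, the proteins of hormone-secreting nerve-like cells. Mast cells store histamine and proteases in granules and need the receptor tyrosine kinase Kit to survive. Cromolyn hinders the release of those granules. The W-sh allele is an inversion on chromosome 5 upstream of Kit that leaves adult mice without mast cells, and the cells that lack Kit function in such a mouse are not mast cells alone.

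Each array reports the brightness of bead-bound probes after hybridisation of labelled cRNA made from total RNA. Levels below are log2 values of the normalized intensity, and differences and distances are on the same scale, where 1 is a 2-fold difference. A value at or under about 7.01 lay within the background of the array and is called not above background. Across 13067 features, which are 11982 named genes and 1085 probes without a gene name here, the cromolyn arrays correlated with one another at 0.931 (replicates 1 and 2), 0.941 (replicates 2 and 3) and 0.966 (replicates 1 and 3). The KitWsh array correlated with cromolyn replicates 1, 2 and 3 at 0.952, 0.939 and 0.975. By this measure it resembled replicate 3 more than any cromolyn array resembled another. These are descriptions across genes of normalized arrays, and genes are not independent. The labels do not say that replicates came from separate animals, so it is not known how far the error terms reflect variation between animals. In whole-tumour RNA, fewer cells of a type and less RNA per cell cannot be told apart.

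The prostate label was checked against its markers. Pbsn (probasin, the prostate secretory gene whose promoter drives the transgene) was not above background on any 24-week array, at 6.64, 6.63 and 6.37 in the cromolyn tumours and 6.46 in the KitWsh tumour, against 12.50 and 11.23 in wild type. Of 17 prostate secretory genes tested, 1, 4 and 7 were above background on cromolyn arrays 1, 2 and 3 and 7 on the KitWsh array, against 16 on each wild-type array. The neuroendocrine markers were present in all 4 tumours. Insm1, a transcription factor of neuroendocrine cells, stood at 13.99, 12.72 and 14.07 with cromolyn and 14.51 in KitWsh, and at 6.33 and 6.56 in the untreated tumours, which is background. Syp (synaptophysin, a synaptic vesicle protein) stood at 13.94, 14.23 and 13.79 with cromolyn and 13.34 in KitWsh, against 7.66 and 7.51 in the untreated tumours. By these markers the 4 tumours at 24 weeks were alike in kind, with neuroendocrine genes high and secretory genes low or at background.

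A gene counted as above the range only if it was above background on the KitWsh array, and as below only if above background on all 3 cromolyn arrays. Dim genes thus had little room to count as below. The KitWsh value lay inside the cromolyn range for 8133 of 13067 features (62.2%), above it for 2816 (21.6%) and below it for 2118 (16.2%). Among those outside, the median distance from the nearest cromolyn array was 0.16, and 9 in 10 lay within 0.60. A distance of 1 or more was reached above the range by 109 features (0.834%) and below it by 58 (0.444%), and a distance of 2 or more by 17 above and 9 below. With 1 array against 3, an exact permutation test cannot give a p below 0.25. The limma fit on all 8 arrays, in which the lone KitWsh array is assumed to vary like the others, gave 3 genes higher in KitWsh (0.023%) and 0 lower at an adjusted p under 0.05. At an unadjusted p under 0.05 it gave 436 higher (3.34%) and 273 lower (2.09%). All other genes named below did not pass the adjusted test and are described by their values.

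The 3 genes that rose were En1, Calcr and Nkx2-2. En1 (engrailed 1, a homeobox transcription factor of the midbrain and hindbrain) was not above background in any cromolyn tumour, at 6.79, 6.61 and 6.59, and stood at 9.76 in KitWsh. That is at least 6.74-fold higher, with a fitted difference of 3.09 ± 0.21 (SE) and an adjusted p of 0.0367 (limma). The untreated tumours, at 7.67 and 7.92, lay between. Calcr (the receptor of the hormone calcitonin) was likewise not above background with cromolyn, at 6.66, 6.23 and 6.33, nor in the untreated or wild-type samples, and stood at 9.71 in KitWsh. It was at least 6.52-fold higher (fitted difference 3.31 ± 0.27, limma adjusted p 0.0432). For Nkx2-2 (a homeobox factor that specifies neuronal and pancreatic endocrine cells) the values are those of the brightest of 2 probes. The other probe lay 0.82 above the range on the log2 scale. Nkx2-2 was present in every cromolyn tumour, at 8.61, 8.85 and 8.93, and reached 11.39 in KitWsh. It lay 5.50-fold above the highest cromolyn array (fitted difference 2.59 ± 0.22, limma adjusted p 0.0432), and was at background in untreated tumours, at 6.29 and 6.46.

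These 3 calls did not hold under all settings. None of them passed when any one wild-type or untreated array or cromolyn replicate 1 was left out, or when the 4 arrays at 24 weeks were fitted alone, where the adjusted p of each was 0.861. Calcr and Nkx2-2 were also not called with a normexp offset of 16, nor was Nkx2-2 with a filter on at least 2 arrays or with the mean of a gene's probes. Their fitted differences stayed between 1.94 and 3.995 under all settings tried.

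The start regions of these 3 genes are printed because they are the genes that passed the test. The RefSeq windows of GRCm38.p6 are given for the 250 bases before each annotated start, with every CG dinucleotide in capitals. Calcr has a further annotated start that is not shown.
En1, chr1:120602237-120602486, plus strand: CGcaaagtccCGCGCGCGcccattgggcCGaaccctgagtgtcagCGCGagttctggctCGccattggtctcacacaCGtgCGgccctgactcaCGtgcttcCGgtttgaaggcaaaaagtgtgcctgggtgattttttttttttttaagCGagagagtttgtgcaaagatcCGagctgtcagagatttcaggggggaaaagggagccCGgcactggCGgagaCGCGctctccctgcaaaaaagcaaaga
Calcr, chr6:3763624-3763873, minus strand: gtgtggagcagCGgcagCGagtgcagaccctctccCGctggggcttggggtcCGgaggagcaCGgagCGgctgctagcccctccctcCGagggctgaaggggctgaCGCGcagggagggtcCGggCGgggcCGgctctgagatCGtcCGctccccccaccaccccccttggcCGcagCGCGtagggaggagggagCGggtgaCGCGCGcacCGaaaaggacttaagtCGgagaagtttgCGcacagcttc
Nkx2-2, chr2:147186403-147186652, minus strand: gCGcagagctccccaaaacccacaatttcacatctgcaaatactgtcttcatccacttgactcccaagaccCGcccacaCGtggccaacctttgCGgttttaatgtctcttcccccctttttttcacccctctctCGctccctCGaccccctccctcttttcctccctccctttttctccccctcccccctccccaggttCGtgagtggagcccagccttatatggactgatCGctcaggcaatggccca
The En1 window held 19 CG dinucleotides, the printed Calcr window 24 and the Nkx2-2 window 8. Of 32851 such windows in the RefSeq table, 19.7% held at least as many as En1. For the printed Calcr window this share was 11.98% and for Nkx2-2 43.0%. The window of the Calcr start not shown held only 2, and 81.2% of windows held at least as many. The letters TATAAA were found on neither strand of the 3 windows, and 12.4% of all windows held them on either strand. The arrays do not measure these regions, so the letters are context for the genes and nothing more.

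The gene farthest above the cromolyn range was Spink1, a secreted inhibitor of trypsin. It stood at 6.60, 6.80 and 10.05 in the cromolyn tumours and 14.14 in KitWsh, 17.0-fold above the highest of them. The untreated tumours, at 7.19 and 14.93, differed from each other by more than that, and the limma adjusted p was 0.938. Spaca7, an acrosome gene of sperm, was 3.52 above the range, at 7.14, 6.99 and 8.27 against 11.79, and was at background in both untreated and both wild-type samples. Its limma adjusted p was 0.12. Krt20, a keratin of intestinal and umbrella cells of the bladder, stood at 7.77, 6.96 and 7.03 with cromolyn and 10.80 in KitWsh. Olfm4, a secreted glycoprotein of intestinal crypts and neutrophils, stood at 8.58, 8.01 and 6.86 with cromolyn and 11.39 in KitWsh. For Krt20 and Olfm4 the untreated tumours, at 6.78 to 8.13, were also far below the KitWsh value.

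The next genes included Slpi, Lcn2, Saa3 and Hp. Slpi, an inhibitor of leukocyte proteases, was at 6.74, 7.08 and 7.49 with cromolyn and 10.08 in KitWsh. Lcn2 (lipocalin 2, which binds bacterial iron carriers) was at 6.68, 7.39 and 8.59 against 10.91, and Saa3 (serum amyloid A3) at 6.80, 6.77 and 8.20 against 10.61. Hp (haptoglobin, which binds free haemoglobin) was at 6.35, 9.48 and 8.26 against 11.62. The wild-type arrays themselves differed widely, at 7.30 and 14.14 for Saa3 and 10.92 and 14.70 for Hp, and the limma adjusted p of these 4 genes was 0.844 or more. The secretoglobin Scgb2b27 was 2.81 above the range, and it too differed between the wild-type arrays, at 11.58 and 6.56. In the list of serpin, S100 and defence genes 8 of 21 tested (38.1%) lay above the range and 0 below, beside 21.6% and 16.2% of all features, with a median difference of 0.46, and 6 of the 21 were not above background in any 24-week tumour.

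A further set was off in the cromolyn tumours and on in KitWsh. Tpmt, which methylates thiopurines, was at 6.88, 6.84 and 6.70 with cromolyn and 9.18 in KitWsh, and not above background in any other group. Lmo3, a LIM-only transcriptional cofactor of neuronal cells, was at 6.73, 7.002 and 6.82 against 9.14 by its brightest probe, while its other probe lay 0.25 above the range. Lmo3 was also above background in both wild-type samples (8.74 and 7.94) and in 1 untreated tumour (8.08). Car14, a membrane carbonic anhydrase, was at 6.72, 6.71 and 6.59 against 9.09, and here both untreated (9.32 and 8.99) and both wild-type samples (9.16 and 8.85) were at the KitWsh level, so it was the cromolyn tumours that stood apart from the other 5 arrays. The limma adjusted p was 0.0531 for Tpmt and for Car14.

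Below the range, Ccng2 (cyclin G2, an atypical cyclin linked to arrest of the cell cycle) was farthest. It stood at 11.22, 11.20 and 12.17 in the cromolyn tumours and 7.97 in KitWsh, a distance of 9.35-fold, and the untreated tumours stood at 10.04 and 9.97. Minar2, a membrane integral NOTCH2-associated receptor, was at 12.51, 13.69 and 12.49 against 9.51. Fgf13, an intracellular partner of sodium channels and microtubules in neurons, was at 12.28, 10.85 and 12.35 against 7.97 by its brightest probe, while of its other 2 probes one lay 0.72 below the range and one inside it. Stmn2 (a stathmin of growing axons) was at 11.24, 12.27 and 12.71 against 8.88. For Minar2 and Stmn2 the untreated tumours lay lower still, and for Ccng2 and Fgf13 the KitWsh tumour was the lowest of all 8 arrays. Limma adjusted p-values of these 4 genes ran from 0.263 to 0.441.

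Transcription factors followed. Hoxd10, a posterior homeobox gene, was at 10.06, 13.79 and 9.64 with cromolyn and 7.08 in KitWsh, and Foxc1, a forkhead factor of mesenchyme, at 11.86, 10.02 and 9.87 against 7.75. Nfib, a nuclear factor I protein, was at 13.87, 13.85 and 13.57 against 11.70, and the untreated (12.99 and 12.87) and wild-type samples (13.29 and 13.28) were also above KitWsh, with a limma adjusted p of 0.065. Radx, a regulator of stalled replication forks, was at 9.36, 9.52 and 9.59 against 7.16 (limma adjusted p 0.0531). Nfib and Radx were thus lowest in the KitWsh tumour of all 8 samples while their spread among the cromolyn tumours was only 0.30 and 0.23. Corin, Slc6a15 and Caln1 were present in all 3 cromolyn tumours and not above background in KitWsh. Cep112, Pip5k1b, Rgs17 and Nab1 lay between 1.57 and 1.76 below the range.

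**Figure D1:**
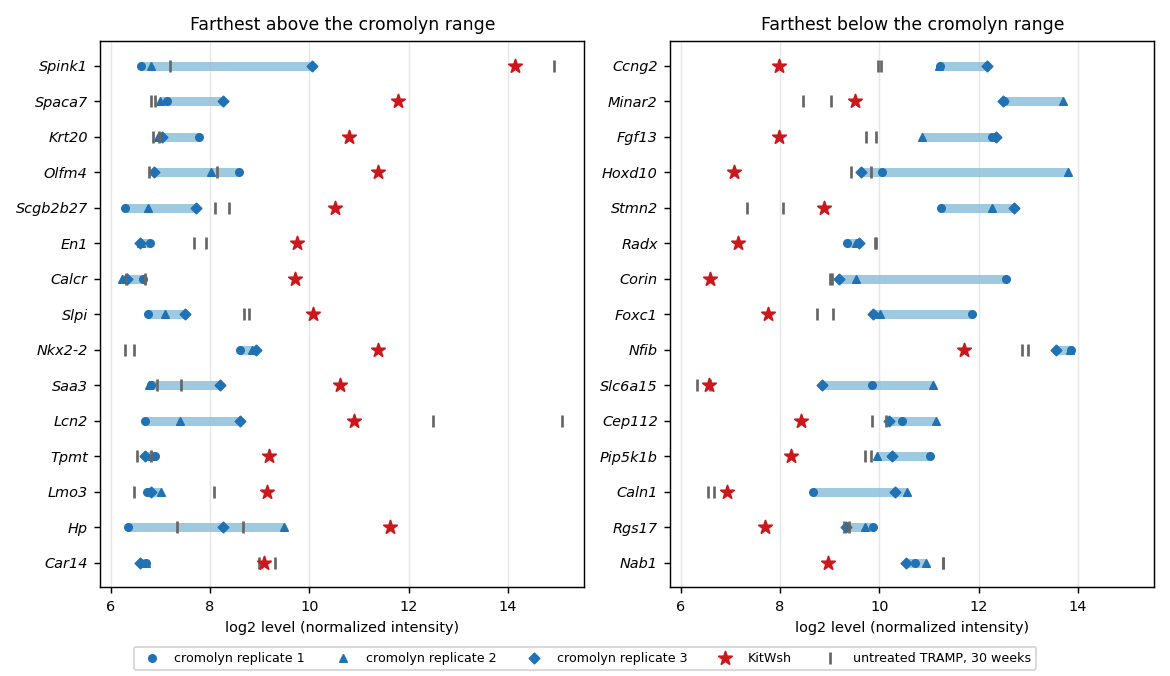
Log2 level of the 15 named genes farthest above (left) and the 15 farthest below (right) the cromolyn range; blue symbols are the 3 cromolyn arrays joined by a bar over their range, the red star is the KitWsh array and grey ticks are the 2 untreated TRAMP arrays at 30 weeks. Spink1 leads on the left with 10.05 as the highest cromolyn value and 14.14 in KitWsh, and Ccng2 on the right with 11.20 as the lowest and 7.97 in KitWsh.

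Of these 30 genes, 28 stayed on their side at a distance of 1 or more under all 16 alternative settings, and Calcr and Tpmt did so under the 15 in which they were measured. Settings that leave out a cromolyn array narrow the range and so could hardly shorten a distance. Array weights do not enter a distance, and leaving out wild-type or untreated arrays acts on it only through normalization, filtering and probe choice. The 16 settings are therefore fewer real checks than their number. At the edge of the distance of 1, Hoxc6 and Ccl12 (both 1.01) lay just outside above the range and Lrrk1 and Rpp25 (both 1.00 after rounding, 0.997 and 0.996) just inside. Below it, St18 (-1.003) and Mavs (-1.01) lay just outside, and Slitrk3 (-0.999) and St8sia4 (-0.995) just inside.

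Chromosomal position separated the genes in a way that the choice of arrays did not use. Genes were placed by symbol on the chromosomes of the RefSeq annotation of GRCm38.p6, and this view was added after the values were seen, so no test is attached to it. On chromosome 12, 254 of 382 genes (66.5%) lay above the cromolyn range and 10 (2.62%) below it, against 21.8% and 16.4% over all 11970 placed genes. The median difference between KitWsh and the cromolyn mean was 0.43 there, where it lay between -0.12 and 0.09 on every other chromosome. Few of these genes were far from the range: 6 of the 254 reached a distance of 1. The whole chromosome took part, since each of 4 equal blocks of its genes, in order of position, had between 57.9% and 70.5% above the range.

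The shift was of similar size against each cromolyn array. Its sign follows from the share above the range, so only the size adds to that share. Among the 297 genes of chromosome 12 that were above background on all 4 arrays, the median difference from cromolyn replicates 1, 2 and 3 was 0.49, 0.50 and 0.42, and 76.8% lay above the range. The cromolyn arrays differed from one another on that chromosome by medians between -0.06 and -0.01. Under the 16 alternative settings the share above the range ran from 52.3% to 72.6% and the median difference from 0.30 to 0.47.

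Chromosome 5, which carries the W-sh inversion, went the other way. There 240 of 760 genes (31.6%) lay below the cromolyn range and 117 (15.4%) above it, with a median difference of -0.12. In the first of 4 equal blocks of its genes, from Cdk6 to Ldb2, 95 of 190 lay below and 4.74% above (median -0.33). The next block, from Qdpr to Pgam5, had 35.3% below (median -0.16). The last 2 blocks, with 22.1% and 18.9% below, were near the share of all genes. Under the alternative settings the share below on the whole chromosome ran from 25.2% to 46.3%.

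Other chromosomes set the cromolyn tumours apart from one another, with the mean of the untreated tumours as a common reference and the median of all genes taken off. On chromosome 19 the KitWsh tumour and cromolyn replicates 2 and 3 lay at -0.65, -0.72 and -0.73, while cromolyn replicate 1 lay at -0.08. On chromosome 8, cromolyn replicate 2 was at 0.36 and replicate 3 at -0.24, with KitWsh and replicate 1 at -0.0028 and -0.024. Cromolyn replicate 3 was at 0.29 on chromosome 3, and replicate 2 at -0.31 on chromosome 14, where the remaining 24-week tumours lay between -0.04 and 0.04. On chromosome 12 the KitWsh tumour was at 0.48 and the 3 cromolyn tumours between -0.05 and 0.03. The deposited values are RNA levels, and DNA of these tumours was not analysed here.

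**Figure D2:**
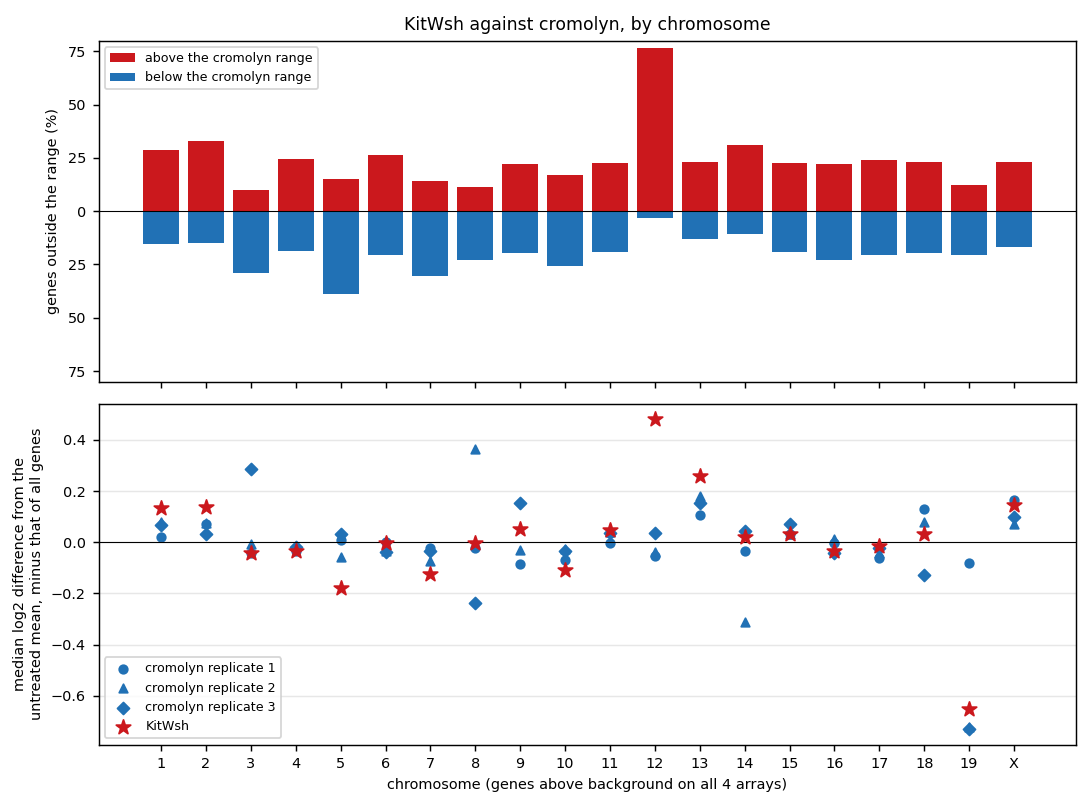
Upper panel: percent of genes above background on all 4 arrays that lay above (red) or below (blue) the cromolyn range in KitWsh, by chromosome. Lower panel: median log2 difference of each 24-week array from the untreated mean, minus that of all genes; chromosome 12 stands out in KitWsh alone (0.48), and on chromosome 19 all but cromolyn replicate 1 lie between -0.65 and -0.73.

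Genes were then grouped into lists by cell type and process, and each list was described by its counts beside those over all features (21.6% above, 16.2% below, median difference -0.0041). Macrophage and myeloid genes stood out most: 18 of 20 tested lay above the cromolyn range, 0 below, and all 20 were above the cromolyn mean, with a median difference of 0.93. Mrc1, the mannose receptor of macrophages, was at 8.87, 9.41 and 9.27 with cromolyn and 10.32 in KitWsh. Fcer1g, the signalling chain shared by activating Fc receptors, was at 10.44, 11.68 and 11.76 against 12.72, and Fcgr1, the high-affinity IgG receptor, at 7.34, 7.92 and 7.75 against 8.81. Lyz1, a lysozyme, was at 12.27, 12.38 and 13.11 against 13.92. By the brightest probe, the KitWsh tumour was above all cromolyn tumours in each of the 4 genes (for Lyz1, the other 2 of 3 probes lay inside the range), but none of the 20 lay as much as 1 above the range. Their mean level was 8.81, 9.40 and 9.55 in the cromolyn tumours and 10.09 in KitWsh, beside 9.96 and 9.91 in the untreated tumours and 8.92 and 10.69 in wild type, so the wild-type pair spanned more than this difference. The count was 18 or 19 when any 1 cromolyn array was left out, but this narrows the range, so the count had little room to fall.

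Chemokines, the secreted attractants of leukocytes, gave 14 of 24 above (58.3%), 1 below and a median difference of 0.90. Cxcl13, which attracts B cells, was not above background in any cromolyn tumour (6.48, 6.74 and 6.67) and stood at 8.89 in KitWsh. Ccl7, a monocyte attractant, was at 6.79, 7.37 and 7.87 against 9.63, and Ccl9 at 7.56, 7.44 and 9.64 against 11.38. Ccl5, an attractant of T cells, was at 7.77, 8.75 and 8.74 against 9.87. The lymphocyte lists themselves did not move in the same way: 2 of 13 T and NK cell genes and 2 of 8 B and plasma cell genes were above the range, with median differences of 0.04 and -0.02. Many of their members were at background, and lists this dim could show little movement. Above background on cromolyn replicates 1, 2 and 3 and KitWsh were 3, 5, 7 and 8 T and NK cell genes. For B and plasma cell genes the numbers were 3, 5, 3 and 4. Pou2af1, a coactivator of B cells, was at 7.14, 8.22 and 8.94 with cromolyn and 6.60, not above background, in KitWsh.

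Antigen presentation genes were counted by class, and the difference between the classes was not tested. For MHC class II, 7 of 11 genes (63.6%) lay above the range and 0 below, with a median difference of 0.87. H2-Aa was at 6.81, 9.36 and 10.36 with cromolyn and 11.01 in KitWsh, and H2-Ab1 at 7.79, 10.55 and 11.68 against 12.24, so that the spread within the cromolyn group, 3.55 and 3.89, was far larger than the step from its top to KitWsh. For class I presentation 6 of 19 were above (31.6%), 0 were below and 15 were above the cromolyn mean, with a median difference of 0.09, and the count above the range was 12 without cromolyn replicate 1. H2-T23 was at 9.73, 9.63 and 9.88 against 10.80, and B2m, the light chain of class I, at 14.13, 14.32 and 14.28 against 14.76.

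Interferon response genes gave 17 of 28 above (60.7%), 0 below and 27 above the cromolyn mean, with a median difference of 0.50. Isg15, a ubiquitin-like antiviral protein, was at 7.75, 8.53 and 8.42 with cromolyn and 9.73 in KitWsh. Oasl2, an oligoadenylate synthetase-like protein, was at 10.22, 10.29 and 9.70 against 11.40, and Ifit3 at 8.25, 9.36 and 9.15 against 10.27. The untreated tumours were well above all of these, at 11.63 and 12.23 for Isg15. The KitWsh tumour thus lay between the cromolyn tumours and the untreated ones for this gene.

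Stromal genes were also above the range. Of 21 fibroblast and collagen genes, 13 were above (61.9%) and 0 below, with a median difference of 0.79. Col1a1, Col1a2 and Col3a1, chains of the fibrillar collagens, lay 1.07, 1.08 and 1.12 above it, Col1a1 at 9.60, 10.66 and 11.04 with cromolyn and 12.11 in KitWsh. Dcn (decorin, a collagen-binding proteoglycan) was at 9.93, 12.63 and 12.31 against 13.66. Cromolyn replicate 1 was lowest in each of these genes. The mean level of the list was 9.60, 10.66 and 10.34 with cromolyn and 11.01 in KitWsh.

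Matrix metalloproteinases and their inhibitors gave 12 of 22 above (54.5%) and 3 below, with a median difference of 0.30. Mmp14, a membrane-bound collagenase, was at 9.44, 10.54 and 10.66 with cromolyn and 12.33 in KitWsh. Timp1, an inhibitor of metalloproteinases, was at 8.35, 9.9996 and 11.58 against 13.24. Mmp9, the gelatinase of leukocytes, was at 7.10, 7.15 and 7.26 against 7.86. Mmp13, another collagenase, went the other way, at 9.71, 10.35 and 9.83 against 8.68.

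Among angiogenic ligands 5 of 13 were above and 2 below (median difference 0.24). Vegfd, a growth factor for lymphatic and blood vessels, was at 7.03, 7.40 and 8.43 with cromolyn and 9.79 in KitWsh, and Angptl4, a secreted lipase inhibitor, at 7.80, 8.498 and 9.32 against 10.47. Vegfb was lower, at 13.14, 12.54 and 12.35 against 11.96. Endothelial genes gave 8 of 17 above and 2 below with a median difference of 0.31, but the largest distance above among them was 0.47, in the apelin receptor Aplnr.

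The mean levels of luminal, junction, prostate secretory and urothelial genes were higher in KitWsh than in each cromolyn tumour. Luminal and androgen-response genes gave 10 of 14 above (71.4%) and 1 below, with a median difference of 0.49. Krt8, a keratin of simple epithelia, was at 7.15, 6.92 and 9.73 with cromolyn and 10.49 in KitWsh, against 14.79 and 14.998 in the untreated tumours. Tmprss2, an androgen-regulated serine protease, was at 6.45, 6.60 and 9.07 against 9.81, and Slc45a3 (prostein) at 7.24, 7.66 and 9.41 against 9.98. In all 3, cromolyn replicate 3 lay next to KitWsh and far from replicates 1 and 2. The number of the 14 above background was 8, 5 and 13 in the cromolyn tumours and 13 in KitWsh.

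Cell junction genes of epithelia gave 14 of 25 above (56.0%) and 1 below, with a median difference of 0.44. Cdh1 (E-cadherin) was at 6.97, 6.83 and 8.57 with cromolyn and 9.26 in KitWsh, against 12.24 and 12.33 untreated. Esrp1, a splicing factor of epithelial cells, was at 6.12, 6.22 and 7.36 against 8.41. Of the prostate secretory genes 5 of 17 were above and 0 below, but only 1 was above background on cromolyn replicate 1, so at most 1 could count as below. Defb50, a beta-defensin, was at 6.35, 6.34 and 10.73 against 11.88, and Msmb (microseminoprotein) at 6.83, 6.59 and 8.92 against 9.87. Replicate 3 again lay next to KitWsh. Urothelial, gastric and mucous genes gave 6 of 17 above and 0 below, and with 4 above background on cromolyn replicate 1, at most 4 could count as below. Upk3b, a uroplakin, and Tff2, a trefoil peptide, were off in all cromolyn tumours and at 8.90 and 8.32 in KitWsh. The mean level of the luminal list was 7.41 and 7.54 in cromolyn replicates 2 and 1, 8.65 in replicate 3 and 8.84 in KitWsh. Basal epithelial genes gave 2 of 15 above and 2 below, with a median difference of -0.16, and their mean level was 7.58, 8.19 and 7.72 with cromolyn and 7.64 in KitWsh. Lamb3, a laminin chain of basal cells, was at 8.61, 9.63 and 8.54 against 6.98, not above background. What part such epithelium had in the other differences was not tested.

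**Figure D3:**
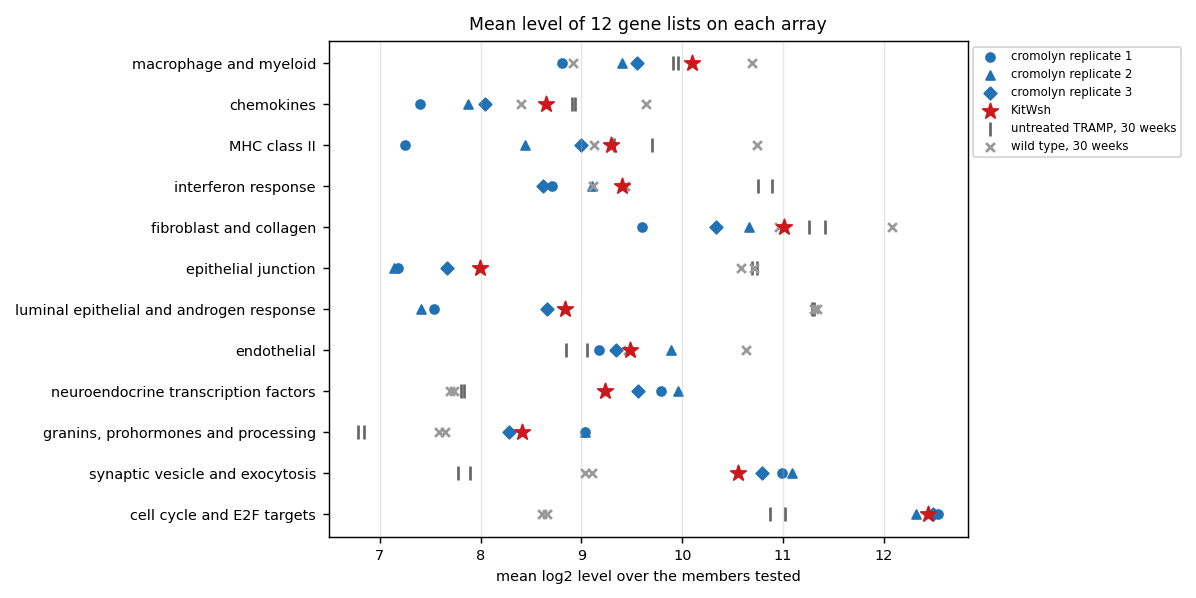
Mean log2 level over the tested members of 12 gene lists on each array; blue symbols are the cromolyn arrays, the red star KitWsh, grey ticks untreated TRAMP and grey crosses wild type. KitWsh lies to the right of all cromolyn arrays for the 4 immune lists at the top, for fibroblast genes and for both epithelial lists, and to the left of them for neuroendocrine transcription factors and synaptic genes.

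Neuroendocrine genes did not move as 1 block. Of 20 neuroendocrine transcription factors, 5 lay above the cromolyn range and 6 below, with a median difference of -0.55. Nkx2-2, described above, led upward. St18, a zinc-finger factor of neurons and endocrine cells, was at 8.76, 8.01 and 9.54 with cromolyn and not above background (6.82) in KitWsh, and Sox2, a factor of neural stem cells, was at 10.28, 7.65 and 8.36 against 6.82. Onecut2 was at 9.45, 9.56 and 8.74 against 7.80. Foxa2, a forkhead factor of neuroendocrine prostate cancer, was inside the range, at 10.78, 7.37 and 7.04 against 7.56. The mean level of the list was 9.24 in KitWsh and 9.56 to 9.95 in the cromolyn tumours, beside 7.83 and 7.80 untreated, so it was high in all 4.

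Granins, prohormones and their processing enzymes gave 4 of 22 above and 5 below, with a median difference of -0.30. Chga (chromogranin A, the main granin of dense-core granules, on chromosome 12) was at 11.75, 10.15 and 11.25 with cromolyn and 12.84 in KitWsh. Pdyn (prodynorphin, an opioid precursor) was at 8.67, 8.998 and 6.76 against 10.32. Scg2 (secretogranin 2) was at 7.83, 13.39 and 10.63 against 7.29, and Tac1, which encodes substance P, at 10.89, 7.57 and 8.17 against 6.83. The named members thus lay on both sides of the range, and Scg2 and Tac1 also differed by 5.56 and 3.32 among the cromolyn tumours.

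Synaptic vesicle genes gave 1 of 23 above and 6 below (26.1%), with a median difference of -0.25, and 14 were below without cromolyn replicate 2. Rab3a, the vesicle GTPase, was at 12.68, 13.17 and 12.55 with cromolyn and 12.26 in KitWsh. Of 25 genes of the neuronal cytoskeleton, adhesion and growth cone, 11 (44.0%) lay below and 4 above, and 3 of the 11 were on chromosome 5. Uchl1, a neuronal ubiquitin hydrolase on that chromosome, was at 13.77, 13.24 and 13.52 against 12.53. Nrcam, a neuronal adhesion molecule on chromosome 12, was at 10.15, 9.60 and 10.40 against 11.57, and Dcx (doublecortin) at 10.23, 10.56 and 10.89 against 11.51.

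Growth and metabolism lists lay near the share of all features or moved little. Cell cycle and E2F target genes gave 6 of 29 above and 5 below, with a median difference of -0.02. Their mean level, 12.54, 12.31 and 12.49 with cromolyn and 12.44 in KitWsh, was above the 10.87 and 11.02 of the untreated tumours. Cdc6, a loader of the replicative helicase, was the farthest outside, at 11.19, 11.19 and 11.35 against 11.99. Cytosolic ribosomal proteins gave 3 of 22 above and 1 below. Mitochondrial respiratory chain genes gave 3 of 27 above and 8 below (29.6%), with a median difference of -0.08, and 13 were below without cromolyn replicate 3. Atp5o, a subunit of ATP synthase, was the farthest, at 11.08, 11.13 and 10.90 against 9.96.

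Mast cell genes carried little signal in either kind of tumour. Of 8 tested, 6 were not above background in any of the 4 tumours, among them the granule proteases Cpa3 (6.47, 6.62 and 6.81 with cromolyn, 6.48 in KitWsh), Cma1, Mcpt4 and Tpsb2. The untreated tumours had Cpa3 at 8.55 and 7.83. Hdc, which makes histamine, lay above the range, at 7.49, 7.90 and 7.48 against 9.01, and is also expressed by other myeloid and neuroendocrine cells. Kitl, the ligand of Kit, was inside the range, at 8.78, 9.01 and 9.14 against 8.89. These defining mast cell genes were at background with the drug as well as with the genotype, so on these arrays they did not set the 2 apart. The Kit gene was not analysed here.

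The surroundings of the W-sh inversion were examined as 21 genes of chromosome 5 near Kit, of which 10 (47.6%) lay below the cromolyn range and 2 above, against 31.1% below among the other 739 genes of the chromosome. In the first block of the chromosome, from Cdk6 to Ldb2, 95 of 190 (50%) lay below, so a share of this size was not particular to the 21 genes. Corin, a membrane protease whose gene lies at the far break of the inversion, was present with cromolyn at 12.56, 9.53 and 9.19 and not above background in KitWsh (6.58). It was also present in the untreated tumours (9.05 and 9.01) and in wild type (8.37 and 8.34), so KitWsh was the only one of the 8 arrays at background. Over the mean of the cromolyn arrays it was at least 10.7-fold lower, a mean that the high value of replicate 1 raises. Sgcb, a sarcoglycan, was at 12.16, 11.73 and 12.28 against 10.88, and Ociad1, an endosomal protein, at 14.21, 13.74 and 14.29 against 13.04. Atp10d, a lipid flippase, lay above, at 7.40, 8.10 and 7.02 against 9.10. Pdgfra, the neighbour of Kit that marks fibroblasts, was inside the range, at 11.59, 9.18 and 10.52 against 11.52. The limma adjusted p of these 5 genes was 0.585 or more.

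Most erythrocyte genes were below the cromolyn range. Of 4 tested 3 were below, and Hba-a1, an alpha globin, stood at 15.97, 15.18 and 14.80 with cromolyn and 14.21 in KitWsh, beside 14.06 and 13.38 untreated. Of 20 skeletal muscle genes only 4 were above background on cromolyn replicate 3, so at most 4 could count as below. Of the 20, 0 were above and 3 below, the share below being close to the 16.2% of all features, with a median difference of -0.39. Their mean level was 8.26 in cromolyn replicate 2 and between 6.91 and 7.01 in the other 3 tumours, so replicate 2 alone carried more of them. Smooth muscle genes gave 4 of 19 above and 3 below, and their mean level, 8.85 in KitWsh, lay within the 8.48, 8.90 and 8.73 of the cromolyn tumours. Acta2, the smooth muscle actin that also marks activated fibroblasts, was at 11.60, 12.48 and 13.01 against 13.75, with all untreated and wild-type samples above 16.

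**Figure D4:**
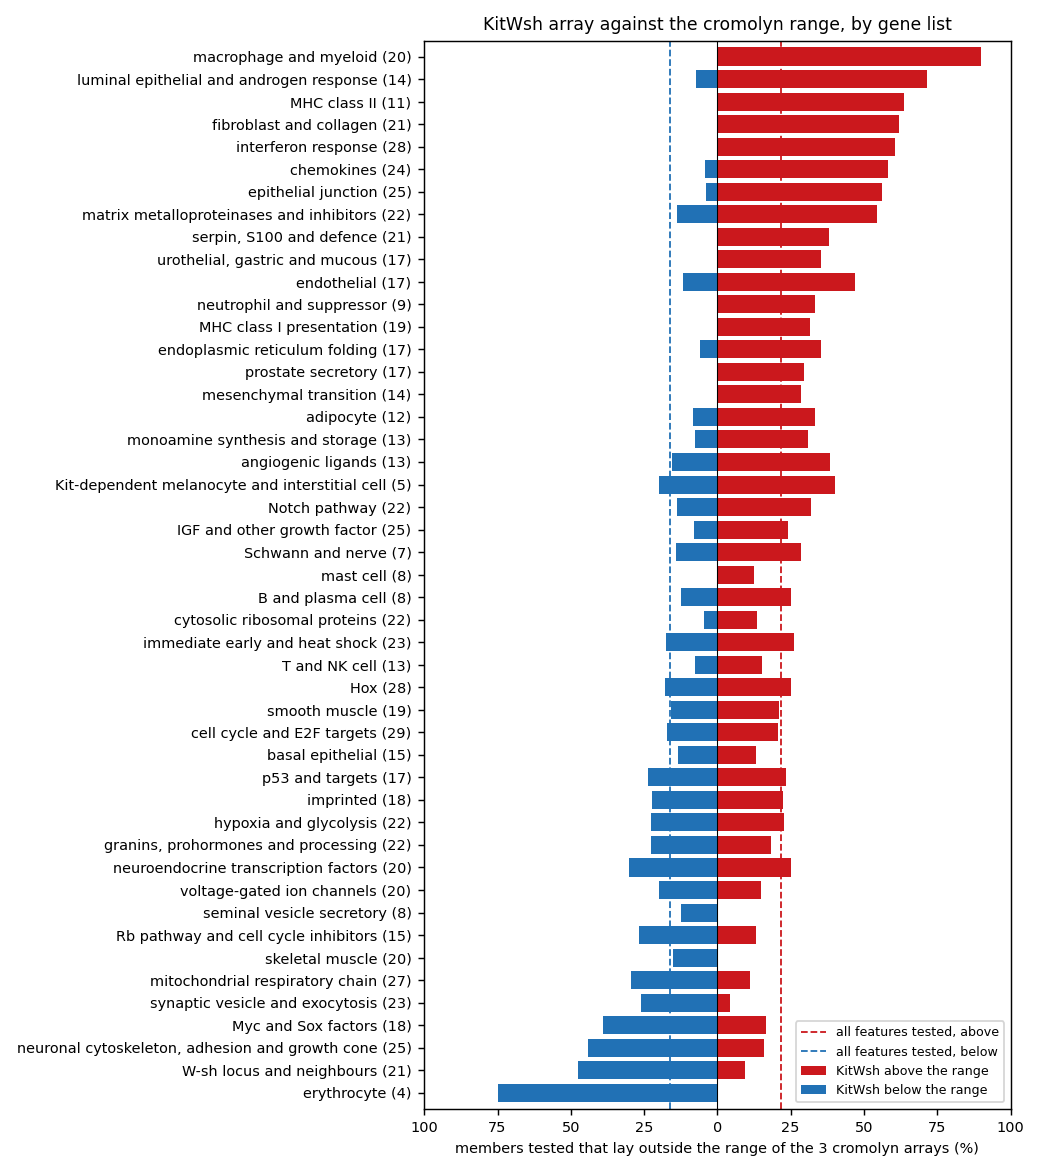
Percent of tested members of each of 47 gene lists (number tested in parentheses) that lay above (red) or below (blue) the range of the 3 cromolyn arrays in the KitWsh tumour; dashed lines mark the shares over all features, 21.6% and 16.2%. Macrophage genes (18 of 20 above) are at the top, and the 4 erythrocyte genes, the W-sh surroundings (47.6% below) and neuronal cytoskeleton genes (44.0% below) at the bottom.

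The cromolyn tumours themselves differed widely, which sets how much a distance from their range can say. The spread from the lowest to the highest cromolyn array had a median of 0.49 over all features, reached 1.40 at the 90th percentile and 3.54 at the 99th. With background values raised to the lowest level above the limit, the spread was 1 or more for 2178 features (16.7%) and 4 or more for 70. In 49 of these 70, replicate 2 was the array that stood high above the other two. The KitWsh value counted as inside the range for 53 of the 70 and was nearest to replicate 3 in 44.

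The 10 genes with the widest spread were all high in cromolyn replicate 2. Gal (galanin, a neuropeptide) stood at 7.08, 14.18 and 6.59 with cromolyn and 7.71 in KitWsh. Ecel1, a neuronal endopeptidase, stood at 7.28, 13.96 and 7.06, and at 9.61 in KitWsh, the only one of the 10 in which KitWsh was more than 1 above both low cromolyn arrays. The kallikreins Klk1, Klk1b5 and Klk1b27, serine proteases of glands, were at 13.49, 13.59 and 13.88 in replicate 2 and not above background in replicates 1 and 3 or in KitWsh. Sis (sucrase-isomaltase, an intestinal enzyme) behaved in the same way. Mmd2, Efhd1, Syt4 (a synaptotagmin) and Chst8 (a sulfotransferase of glycoprotein hormones) completed the set.

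**Figure D5:**
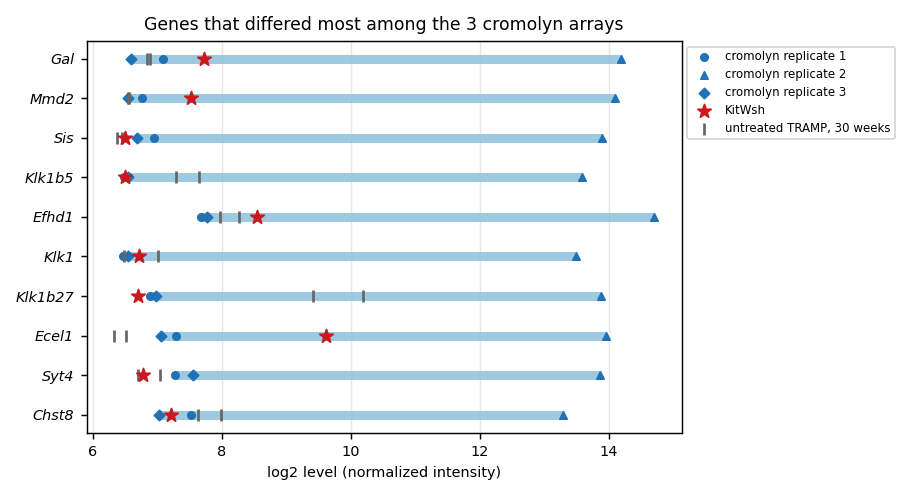
Log2 level of the 10 named genes with the largest spread among the cromolyn arrays; blue symbols are the cromolyn arrays joined by a bar over their range, the red star KitWsh and grey ticks the untreated TRAMP arrays. Cromolyn replicate 2 (triangle) lies between 13.28 and 14.70 in all 10, and replicates 1 and 3 lie below 8.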

How the data were processed

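Total RNA of 8 mouse samples was hybridised to Illumina beadchips, 1 array per sample, and grouped by the labels. The deposited value of each of 25697 probes is an intensity on a linear scale, made by the authors in BeadStudio per the submitters' processing notes (no version given). Once sorted, the 8 columns agreed within 0.0489 on the log2 scale at every rank, so the deposited intensity had been quantile normalized, and its lowest value, 124, lay well above 0. The 16 columns of a further table, which no label ties to samples, were not used here.

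Intensities were corrected with limma's normexp (offset 50), quantile normalized and taken to log2. A probe was above background over an intensity of 216.4, where 0.01 of a background of mode 181.0 and SD 15.2 would lie above it; 14531 to 14552 probes passed per array. Features above it on at least 1 array were kept, with the brightest probe per gene. Of 216 named genes, 73 had several such probes, and in Mbp and Pfkl these lay on opposite sides of the range. In 22 of the 70 of these outside the range by their brightest probe, among them Fgf13, Lyz1, Sox2, Sox5, Sgcb, Fgf10 and Azgp1, at least 1 other probe lay inside it. A distance was taken from the nearest cromolyn array, with background values raised to the lowest level above the limit, and is a lower bound where one side was all background.

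Differences were fitted with limma 3.58.1 in R 4.3.3 over all 8 arrays with 4 group means (4 residual and 2.62 prior degrees of freedom), and p-values are two-sided and Benjamini-Hochberg adjusted over 13067 features. The steps were tested on simulated data. The number of arrays limits the precision.

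Named were the 15 genes farthest above and below the range, the 10 with the largest cromolyn spread, up to 4 per list, a panel of 20 (16 tested) and those next to a distance of 1; clone and prediction labels were left out. Members, lists and alternatives were chosen with earlier results of these data known. Gene symbols came from GEO's platform annotation (23978 probes with 1 gene, 1719 unnamed).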

Additional observations from a re-analysis of the deposited data

How the results depend on the processing

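The limits are few arrays, no replicate of KitWsh, and no DNA or cell counts. Genes called higher and lower in KitWsh, 3 and 0 as reported, were 1 and 0 with a normexp offset of 16, 5 and 1 with cyclic loess, 5 and 2 with no filter on dim probes, 1 and 0 with a filter on at least 2 arrays, 6 and 3 with array weights, and 0 and 0 with only the 4 arrays at 24 weeks. Leaving out 1 array gave 0 to 24 higher and 0 to 10 lower, with 9 and 10 without cromolyn replicate 2 and 24 and 7 without replicate 3. The cause was not tested. En1 was called in 10 of 16 alternatives, Calcr in 8 of 15 and Nkx2-2 in 7 of 16, with limma adjusted p from 0.0209 to 0.861. Features 1 or more above and below the cromolyn range, 109 and 58, were 74 and 38 with no background correction, 95 to 135 and 49 to 71 under the other settings that keep all cromolyn arrays, and 161 to 277 and 86 to 130 without 1 cromolyn array, where the range is narrower by construction.

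Besides the list counts given in the text without an array, leaving out 1 cromolyn array moved these by over 1.5 times, among counts that reached 5 on either side: cell cycle genes above (6 to 10 without replicate 1) and below (5 to 10 without replicate 2 and 9 without replicate 3), granin genes below (5 to 8 without replicate 2 or 3), neuronal cytoskeleton genes above (4 to 7 without replicate 2 or 3), ion channel genes above (3 to 7 without replicate 1) and below (4 to 7 without replicate 2 or 3), Rb pathway genes below (4 to 8 without replicate 3), Notch genes below (3 to 5 without replicate 3), hypoxia and glycolysis genes below (5 to 10 without replicate 2), immediate early genes above (6 to 10 without replicate 2), adipocyte and mesenchymal transition genes above (each 4 to 7 without replicate 2), ribosomal genes above (3 to 7 without replicate 1 and 5 without replicate 3) and below (1 to 7 without replicate 2), synaptic genes above (1 to 5 without replicate 1), respiratory chain genes above (3 to 5 without replicate 2), Hox genes below (5 to 8 without replicate 3), Myc and Sox genes above (3 to 5 without replicate 3), growth factor genes below (2 to 6 without replicate 2) and imprinted genes above (4 to 7 without replicate 2) and below (4 to 7 without replicate 1). The counts of macrophage, chemokine, MHC class II, interferon, fibroblast, luminal and junction genes above the range were within 1.5 times under all 16 alternatives. For macrophage (18 of 20) and luminal genes (10 of 14) growth by 1.5 times was not possible. Leaving out a cromolyn array narrows the range, so these counts also had little room to fall there. Array weights cannot change them, and leaving out wild-type or untreated arrays acts on them only through normalization, filtering and probe choice. These list and chromosome settings were chosen after seeing the data. No paired analysis was possible because the KitWsh group has 1 array and so shares fewer than 2 replicate numbers with the cromolyn group. Slide as a block was not run, since no label ties a slide to a sample.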

Other observations

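Of 28 Hox genes tested, 7 lay above the cromolyn range and 5 below (17.9%), shares near the 21.6% and 16.2% of all features. Hoxd9, next to Hoxd10 in the same cluster, was at 11.31, 12.98 and 9.97 with cromolyn and 8.92 in KitWsh. Hoxa9 was at 11.81, 8.97 and 7.88 against 6.89, not above background, while Hoxc6 was off in all cromolyn tumours and at 8.02 in KitWsh. Of 18 Myc and Sox family genes, 3 were above (16.7%) and 7 below (38.9%), with a median difference of -0.35. Sox5 was at 10.16, 10.06 and 8.88 against 7.41, and Max, the partner of Myc, encoded on chromosome 12, at 12.28, 12.38 and 12.21 against 13.15. Limma adjusted p-values of these genes were 0.585 or more.

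Of 25 insulin-like and other growth factor genes, 6 were above the range (24.0%) and 2 below (8.00%). Fgf10, a mesenchymal growth factor that prostate buds need, was at 8.97, 8.14 and 9.55 with cromolyn and 6.64, not above background, in KitWsh. Igfbp2 was at 9.51, 10.09 and 9.39 against 11.12, and Igfbp4 at 11.66, 10.94 and 11.40 against 12.45. Both bind insulin-like growth factors outside the cell. Among 18 imprinted genes, 4 were above and 4 below, 22.2% each, near the shares of all features. Peg3 was at 8.76, 8.05 and 8.12 against 7.21, and Cdkn1c, a cyclin-dependent kinase inhibitor, at 14.54, 15.53 and 14.47 against 13.85. None of these had a limma adjusted p below 0.585.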
